A study of Homo sapiens with 7 samples.

Results

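The regions described here are the stretch of chromosome 6 that holds the classical HLA class II genes and the stretch of chromosome 16 around CIITA, with their peaks of the vitamin D receptor (VDR) in THP-1, a line of human monocytic leukaemia cells. Peaks were taken where they overlapped chr6:32350000-33100000 (hg19), a window of 750 kb from HLA-DRA to HLA-DPB1, or chr16:10900000-11090000, a window of 190 kb around CIITA, whose gene was placed at 10971055 to 11018840. This gave 48 of the 89218 peaks in all lists, 43 of them in the HLA window and 5 in the CIITA window. The cells had been exposed for 8 h to 100 nM 1α,25-dihydroxyvitamin D3 (1,25D), the ligand of VDR, or to its solvent, 0.1% ethanol (EtOH), with 3 ChIPmentation libraries per treatment. ChIPmentation is a chromatin immunoprecipitation in which a transposase inserts the sequencing adapters. Peaks had been called per library. Nothing in the labels says that the replicates came from separate cultures, so the spread between libraries may be technical.

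The lists of 1,25D replicates 2 and 3 ended before chromosome 6 as used here. The HLA window was therefore covered by 4 lists, those of 1,25D replicate 1 and of EtOH replicates 1 to 3, and its 1,25D side has no replicate. The CIITA window was covered by all 6 lists. A peak carries the authors' fold enrichment over background and p-value, which are the peak's own. Read counts are not part of the lists, so the depth is unknown. A window without a peak had nothing above the caller's threshold, which does not show that VDR was absent.

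HLA class II molecules are pairs of an alpha and a beta chain on the surface of antigen-presenting cells, monocytes and macrophages among them, where they show peptides to CD4+ T cells. HLA-DRA and HLA-DRB1 encode the chains of HLA-DR, HLA-DQA1 and HLA-DQB1 those of HLA-DQ, and HLA-DPA1 and HLA-DPB1 those of HLA-DP. CIITA encodes the class II transactivator, a coactivator that does not bind DNA by itself. It is recruited to class II promoters by the RFX complex on the X box and by NF-Y on the Y box, and interferon gamma is the classical inducer of its gene. VDR binds DNA as a partner of RXR, typically at a direct repeat of a hexamer with a spacer of 3 bases.

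Promoter sequences were found for 5 of the 7 members in the RefSeq table. They are shown because their X and Y boxes are where CIITA acts, and because they give the letters in which a VDR element was looked for. Each stretch holds the 150 bases before a RefSeq start, 5′ to 3′ on the gene's strand. Capitals mark the core of the Y box, ATTGG, and AACNGA, letters shared by the X boxes of 3 of the members and chosen after reading them, on that strand.
HLA-DRB1 (GRCh38.p14, chr6:32589849-32589998, minus strand): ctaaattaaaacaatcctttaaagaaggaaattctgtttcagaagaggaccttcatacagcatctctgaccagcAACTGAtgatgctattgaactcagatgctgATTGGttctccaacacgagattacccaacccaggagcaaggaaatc
HLA-DQA1 (GRCh38.p14, chr6:32637256-32637405, plus strand): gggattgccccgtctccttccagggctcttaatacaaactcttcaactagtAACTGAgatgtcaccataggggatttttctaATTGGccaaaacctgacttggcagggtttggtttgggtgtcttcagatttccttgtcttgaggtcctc
HLA-DQB1 (GRCh38.p14, chr6:32666658-32666807, minus strand): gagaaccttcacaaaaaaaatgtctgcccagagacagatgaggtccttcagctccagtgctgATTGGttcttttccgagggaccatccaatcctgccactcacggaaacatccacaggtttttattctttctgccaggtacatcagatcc
HLA-DPA1 (GRCh38.p14, chr6:33073650-33073799, minus strand): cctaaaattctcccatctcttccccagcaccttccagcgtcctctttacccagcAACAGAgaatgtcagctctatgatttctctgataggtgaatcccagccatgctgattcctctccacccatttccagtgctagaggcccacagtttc
HLA-DPB1 (GRCh38.p14, chr6:33075840-33075989, plus strand): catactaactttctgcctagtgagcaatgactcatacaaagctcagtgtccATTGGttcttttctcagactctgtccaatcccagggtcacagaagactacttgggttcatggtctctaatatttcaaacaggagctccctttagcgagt
HLA-DPA1 had 2 entries, and the one with a capital stretch is shown. These positions are of another build than the peaks and were not compared with them, so whether a peak lies on one of these promoters is not given.

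The Y box core was on the gene's strand in HLA-DRB1, HLA-DQA1, HLA-DQB1 and HLA-DPB1. It began 46 bases before the RefSeq start in HLA-DRB1, 68 in HLA-DQA1, 88 in HLA-DQB1 and 99 in HLA-DPB1. AACNGA began 30 bases before the Y box core in HLA-DRB1 and 31 before it in HLA-DQA1, a beta and an alpha chain gene with nearly the same spacing. On either strand, 32.0% of all 35116 promoters held ATTGG in the 250 bases before the start and 28.2% held AACNGA. VDR hexamers were searched on both strands with the spelling AGGTCA or else the spelling AGTTCA. The spelling GGGTCA and also the spelling GGTTCA were added after the sequences had been read. Hexamers were present in HLA-DRB1, HLA-DPA1 and HLA-DPB1, and 33.8% of all promoters held at least 1 of the 4. The HLA-DPA1 entry shown held AGTTCA on the opposite strand at 187 and 180 bases before its start, outside the printed stretch. Spacers other than 3 bases were not searched. HLA-DPB1 held GGGTCA at 66 and GGTTCA at 46 bases before its start. Neither HLA-DQA1 nor HLA-DQB1 held any. A direct repeat of these hexamers 3 bases apart was in 0 of the 6 member entries and in 23 of all promoters, or 0.0655%. These counts describe letters in 1 short window and say nothing about binding.

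In the HLA class II window no peak was strong in any of the 4 lists. The window held 7 peaks in 1,25D replicate 1, against 9, 17 and 10 peaks in EtOH replicates 1 to 3. Their folds ran from 2.53 to 4.49 (median 4.02) in 1,25D replicate 1, against 2.49 to 4.76 (median 3.97), 2.30 to 4.70 (median 3.48) and 2.61 to 3.20 (median 2.91) in EtOH replicates 1 to 3. None of the 43 peaks reached a fold of 5, while 16.5% of all peaks did in 1,25D replicate 1 over the part of the genome that the 4 lists share, against 5.39%, 2.74% and 3.78% in EtOH replicates 1 to 3. Peaks that reached a fold of 4 numbered 4 in 1,25D replicate 1, against 3, 4 and 0 in the EtOH lists. Over whole lists, which end at different places, 41.5% of peaks reached it in 1,25D replicate 1. In EtOH replicates 1 to 3 the shares were 34.2%, 17.9% and 9.1%. Inside the window the folds of both treatments covered much the same range, with EtOH replicate 3 lowest. The EtOH lists averaged 12.0 ± 4.36 peaks here (SD, n = 3), and the 1,25D list lay below all 3. As a share of the list over the shared part, the window held 0.0659% of the peaks in 1,25D replicate 1, against 0.0853%, 0.071% and 0.0841% in EtOH replicates 1 to 3. EtOH replicate 1 has nearly the same highest p as 1,25D replicate 1, a lower one than the other lists, and the counts of these 2 libraries were 7 and 9. With 1 library on the 1,25D side no test was made.

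**Figure D1:**
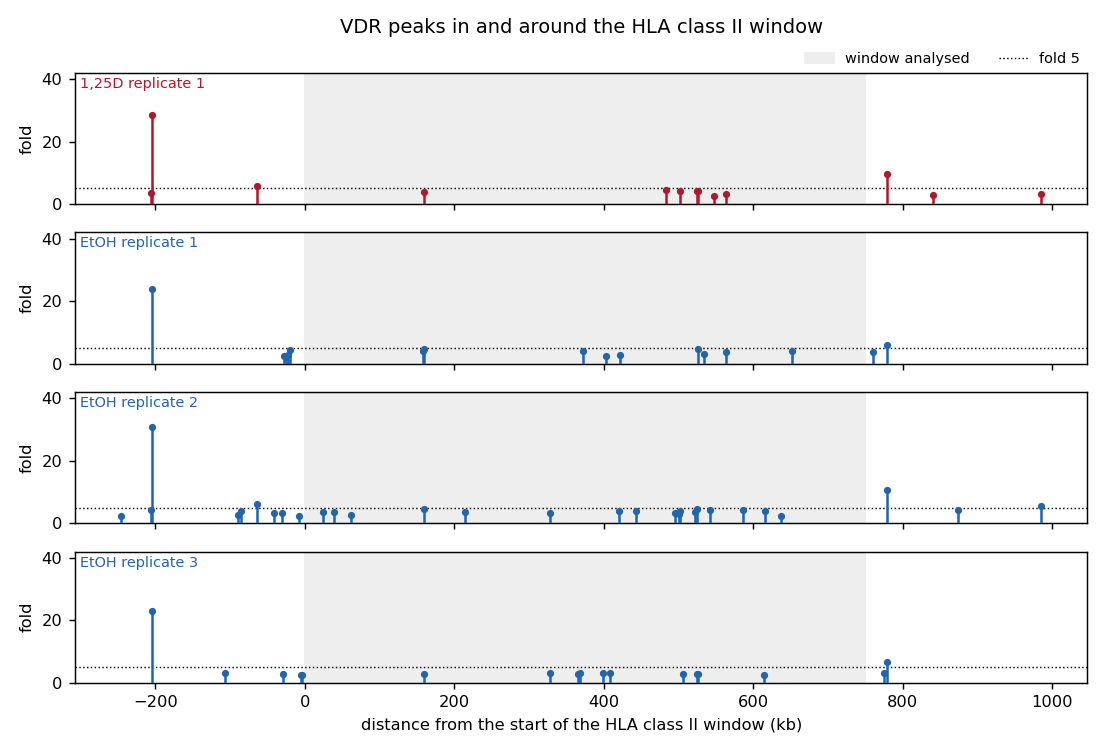
Authors' fold enrichment (linear axis) of each peak against its distance in kb from the start of the HLA class II window, 1 row per library, 1,25D in red and EtOH in blue. Inside the shaded window every peak stays under the dotted line at fold 5, whereas a site 204 kb before it and a site 28.8 kb after it exceed that line in all 4 lists.

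The window lay between stronger sites that were called with and without the hormone. Before it, at chr6:32144964-32145950, a site had a fold of 28.54 in 1,25D replicate 1, against 23.88, 30.90 and 23.14 in EtOH replicates 1 to 3. After it, at chr6:33128848-33129499, a site had a fold of 9.75 in 1,25D replicate 1, against 6.04, 10.56 and 6.72 in the EtOH replicates. In both sites the 1,25D value lay within the EtOH range. Another site, chr6:32286208-32286611, had a fold of 5.88 in 1,25D replicate 1, against 6.21 in EtOH replicate 2, with no peak in the other EtOH lists. From that site to the one after the window, 842.2 kb held no peak with a fold of 5 or more in these lists.

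Windows with no peak of fold 5 or more were common over the shared part of the genome, and less so among windows with as many peaks. Of 2871 windows of 750 kb with any peak in the 4 lists, 53.0% held no peak with a fold of 5 or more. Among the 202 windows with at least 43 peaks, 47 held none, or 23.3%. The HLA window was rich in weak peaks, with 43 over the 4 lists against a median of 17. Windows with at least as many formed 7.04%.

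**Figure D2:**
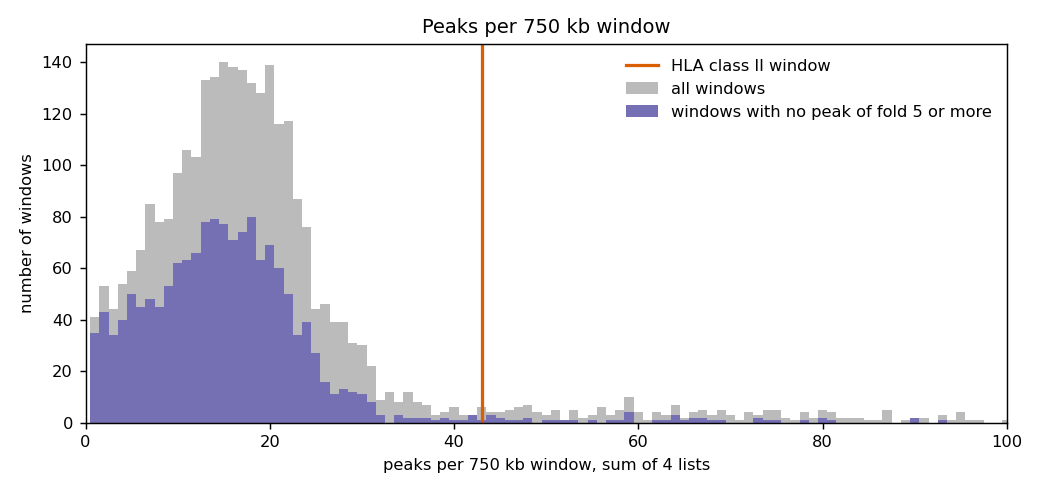
Number of 750 kb windows (vertical axis) by their peaks summed over the 4 lists (horizontal axis, drawn to 100, beyond which lie 17 windows). All windows with any peak are in grey and those with no peak of fold 5 or more in purple. The orange line marks the HLA class II window at 43 peaks, far to the right of the median of 17.

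Peaks were many along a long stretch of chromosome 6, which began abruptly near the window. The boundary that best divided the 750 kb windows of the chromosome by peak number was at 31.5 Mb, which is 850 kb before the HLA window, and was located from these data. The 42 windows before it had a median of 2 peaks over the 4 lists and at most 12, and the 73 windows after it had a median of 64. The step was seen in each list, with medians after the boundary of 11 peaks in 1,25D replicate 1 and of 12, 23 and 13 in EtOH replicates 1 to 3, against 1 before it in 1,25D replicate 1 and 0, 1 and 0 in the EtOH replicates. Of the 73 windows, 52 held at least 43 peaks (71.2%) and 28.8% had no peak with a fold of 5 or more. The HLA window, with 43, was thus below the median of the whole stretch. It was above that of the 10 windows that follow it, which had a median of 30 (14 to 51). The median of 64 thus came from windows further along. The tiled window from 32.25 Mb overlaps most of the HLA window. It held 8 peaks in 1,25D replicate 1, against 12, 23 and 13 in EtOH replicates 1 to 3. The counts therefore depend on where the window is set. The part of the step at 31.5 Mb in the peak numbers of the HLA window was not tested.

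**Figure D3:**
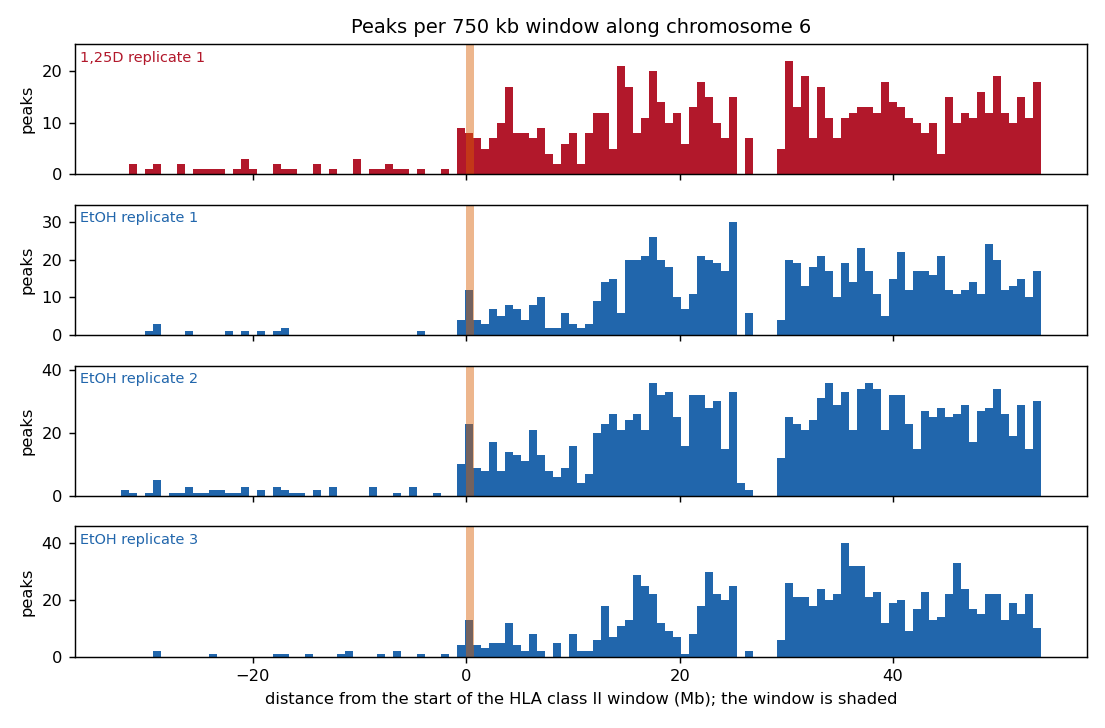
Peaks per 750 kb window (vertical axis) along chromosome 6 up to the limit shared by the 4 lists, against the distance of the window's centre in Mb from the start of the HLA class II window, 1 row per library. The orange band marks the HLA class II window, which lies just after a step in peak number. The median over the 4 lists was 2 peaks before the step. It was 30 in the 10 windows next after the HLA window, and 64 over the whole stretch after the step.

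After merging peaks that shared at least 1 bp, the HLA window held 35 sites, of which 30 were called in a single list, 3 in 2 lists, 1 in 3 lists and 1 in all 4. Single-list sites formed 94.6% of all 51880 sites over the shared part, a higher share than in the window. Unrepeated sites were thus the usual case in both. Of the 35 sites, 3 were called in 1,25D replicate 1 alone, 4 in 1,25D replicate 1 and at least 1 EtOH list, and 28 in EtOH lists alone. Over all 51880 sites these patterns formed 16.2%, 4.09% and 79.7%, so the number called in EtOH lists alone was close to the background. The share in 1,25D replicate 1 alone was below the background and the share with an EtOH partner above it. These small counts were not tested.

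The one site called in all 4 lists was at chr6:32509132-32509583. Its fold was 3.71 in 1,25D replicate 1, against 4.76, 4.40 and 2.91 in EtOH replicates 1 to 3. The 1,25D value was inside the EtOH range. The peaks of EtOH replicates 2 and 3 did not overlap each other, so no base of the site was covered in all 4 lists. They were joined through the peaks of 1,25D replicate 1 and EtOH replicate 1. In its own list the peak exceeded 45.5% of all peaks in 1,25D replicate 1, against 90.2%, 93.3% and 28.4% in EtOH replicates 1 to 3. Sites called in all 4 lists formed 1.31% of all sites (680 sites), and 70 of these 680 (10.3%) were, like this one, under a fold of 5 in every list. A peak called in EtOH replicate 1 alone, at 32508412 to 32508559 with a fold of 4.17, ended 573 bp before it and was the highest-fold peak of that list in the window without a partner in another list.

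A second concentration lay further along, where 3 sites fell within 2 kb. The site at chr6:32874441-32874767 had a fold of 4.11 in 1,25D replicate 1, against 4.70 in EtOH replicate 2 and no peak in the other EtOH lists. The site at chr6:32876004-32876330 had a fold of 4.02 in 1,25D replicate 1, against 4.58 and 2.89 in EtOH replicates 1 and 3 and no peak in EtOH replicate 2. In the latter site the peaks of 1,25D replicate 1 and EtOH replicate 1 did not overlap each other. They were joined through the peak of EtOH replicate 3. Between the sites, 32875051 to 32875238 was called in EtOH replicate 3 alone with a fold of 2.87. Every one of the 4 lists therefore had a peak in this cluster, but no site of it was called in all 4.

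The site at chr6:32851630-32851896 had a fold of 4.21 in 1,25D replicate 1, against 3.94 in EtOH replicate 2. The site at 32678507 to 32678657 was called in EtOH lists alone, with folds of 3.30 in EtOH replicate 2 and 3.15 in EtOH replicate 3. The peaks of 1,25D replicate 1 with no EtOH partner were at 32832895 to 32833042 (fold 4.49, the highest of that list in the window), 32897305 to 32897452 (2.53) and 32913148 to 32913295 (3.14). All 3 were 147 bp long, the shortest length in that list, which 43.0% of its peaks had. The highest-fold unrepeated peaks of the other lists were at 32892248 to 32892437 in EtOH replicate 2 (fold 4.15) and at 32718177 to 32718321 in EtOH replicate 3 (3.20).

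Of the 7 sites of 1,25D replicate 1 in the window, 4 were thus also called in an EtOH list. Over the shared part of the genome 20.2% of the sites of this list were also called in an EtOH list. In the same range of folds, 2.53 to 4.49, the share was 9.84% of 7887 sites, and on chromosome 6 after the boundary, outside the window, it was 10.8% of 631 sites. The members' count is small, and no test was made of it. Without EtOH replicate 2, the longest list, 2 of the 7 sites had an EtOH partner.

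By gene order in the RefSeq table of GRCh38, 18 protein-coding genes run from HLA-DRA to HLA-DPB1. They include the 6 HLA members, and 11 of 20 other antigen presentation genes that had been listed. These 11 are HLA-DRB5, HLA-DQA2, HLA-DQB2 and HLA-DOB, the peptide transporter genes TAP1 and TAP2, the immunoproteasome genes PSMB8 and PSMB9, HLA-DMA and HLA-DMB, which encode the peptide exchange factor HLA-DM, and HLA-DOA. BRD2, a bromodomain gene, completes the row. A placement of single peaks in these genes needs an annotation of hg19, which was not used here.

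In the CIITA window the one repeated site was called after 1,25D. At chr16:10991198-10991449, inside the CIITA gene and centred 20268 bp from its start, the fold was 3.31 in 1,25D replicate 2 and 4.25 in 1,25D replicate 3 (mean 3.78 ± 0.66, SD, n = 2), with no peak in 1,25D replicate 1 or in any EtOH list. The authors' p was 0.000226892 in 1,25D replicate 2 and 2.77402e-05 in 1,25D replicate 3. Within their lists these peaks exceeded 44.5% and 70.4% of all peaks. Of 28993 sites in the part of the genome that all 6 lists share, 636 (2.19%) had the same pattern of 2 lists of 1,25D and none of EtOH. The median of their mean folds over the 1,25D lists that called them was 3.72 (quartiles 3.36 and 4.24). With a mean of 3.78, the CIITA site was of ordinary strength among them.

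The other 3 sites of the window were each called in a single library, as were 89.8% of all sites in the part that the 6 lists share. At 10979175 to 10979316, centred 8190 bp after the gene's start, 1,25D replicate 2 had a peak with a fold of 3.23 and a length of 141 bp, the shortest in its list, which 17.4% of its peaks had. At 10975732 to 10976106, centred 4864 bp after the start, EtOH replicate 3 had a peak with a fold of 3.01. That library also had the only peak outside the gene, at 10944011 to 10944163, centred at -26968 bp from the start, with a fold of 3.13. No peak in any list covered the start of the gene as given. CIITA has several alternative promoters used in different cell types, and their positions were not part of the data.

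**Figure D4:**
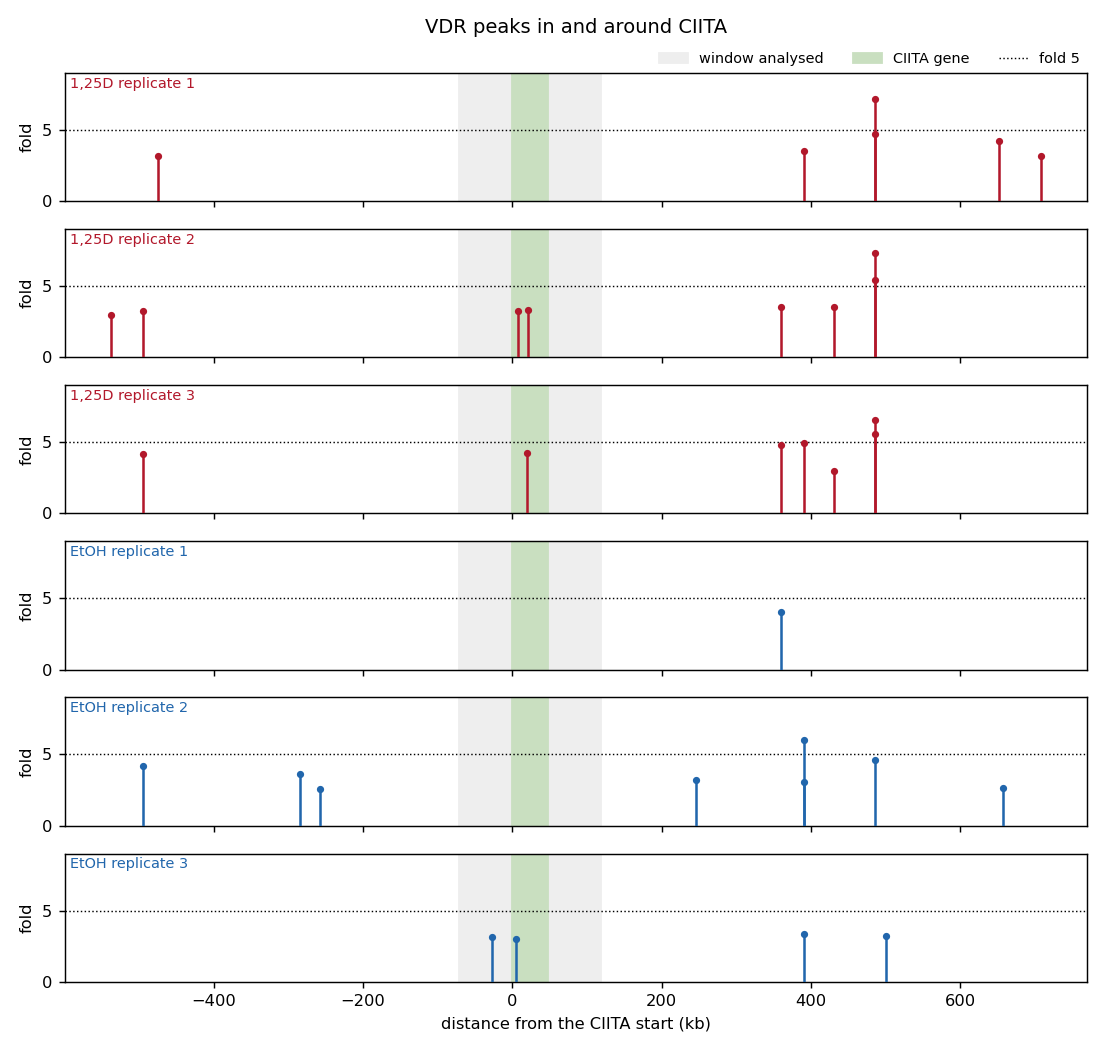
Authors' fold enrichment (linear axis) of each peak against its distance in kb from the CIITA start, 1 row per library, 1,25D in red and EtOH in blue, with the gene in green and the window in grey. Inside the gene 1,25D replicates 2 and 3 share a site about 20 kb from the start, at folds of 3.31 and 4.25, and the peaks above the dotted line at fold 5 lie outside the window.

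The number of peaks did not separate the treatments. The window held 0, 2 and 1 peaks in 1,25D replicates 1 to 3, against 0, 0 and 2 peaks in EtOH replicates 1 to 3. The groups overlapped, and the difference in means was 0.333 peaks (1 in 1,25D, 0.667 in EtOH; two-sided exact permutation p = 1 over 20 assignments of the labels, where the smallest possible p is 0.1). The difference was -0.167 without 1,25D replicate 2, 0 without EtOH replicate 1 or 2, and 1 without EtOH replicate 3. The lists of both replicates 1 have a lower highest p than the rest, and both had 0 peaks here. Among the other 4 libraries the means were 1.5 in 1,25D and 1 in EtOH (exact permutation p = 1). With 4 libraries the smallest possible p is above 0.1, so that test could not separate the treatments. No peak of the window reached a fold of 5, as in 77.5% of 4481 windows of 190 kb with any peak in the 6 lists.

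Beyond the window, the nearest site after it with a fold of 5 or more in any list was at chr16:11361762-11362046, 343 kb past the end of CIITA. Its fold was 4.96 in 1,25D replicate 3, against 6.05 in EtOH replicate 2, with no peak in the other lists. Just before it, chr16:11361447-11361662 was called in EtOH lists alone, with folds of 3.06 and 3.35 in EtOH replicates 2 and 3. The other 4 downstream sites in at least 2 lists, up to 438 kb past the gene, were each called in more lists of 1,25D than of EtOH. Those at 312 and 382 kb past the gene were in 2 lists of 1,25D and no EtOH list. That pattern formed 2.19% of 28993 sites in the part that the 6 lists share. How common the other patterns are was not counted, and whether such sites are enriched near CIITA was not tested. Over whole lists, which end at different places, fold 5 was reached by 15.0%, 22.5% and 21.8% of peaks in 1,25D replicates 1 to 3. In EtOH replicates 1 to 3 the shares were 4.8%, 2.58% and 3.78%. The site at chr16:11455857-11456338, 437 kb past the gene, had folds of 4.71, 7.34 and 5.55 in 1,25D replicates 1 to 3 and no peak in any EtOH list. Next to it, chr16:11456973-11457532 had folds of 7.16, 5.40 and 6.52 in 1,25D replicates 1 to 3, against 4.59 in EtOH replicate 2 and none in the other EtOH lists. Here every 1,25D value was above the single EtOH value. The site at chr16:11330742-11331099, 312 kb past the gene, had folds of 3.54 and 4.83 in 1,25D replicates 2 and 3 and no EtOH peak that overlapped it, though a peak of EtOH replicate 1 with a fold of 4.04 began soon after its end. The site at chr16:11401118-11401420, 382 kb past the gene, had folds of 3.54 and 2.98 in 1,25D replicates 2 and 3 and no EtOH peak. Before the window, chr16:10476342-10476977 had folds of 3.23 and 4.17 in 1,25D replicates 2 and 3, against 4.15 in EtOH replicate 2. Compared with the others, the site inside CIITA was weaker than the pair at 437 and 438 kb in every 1,25D list that called it.

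**Figure D5:**
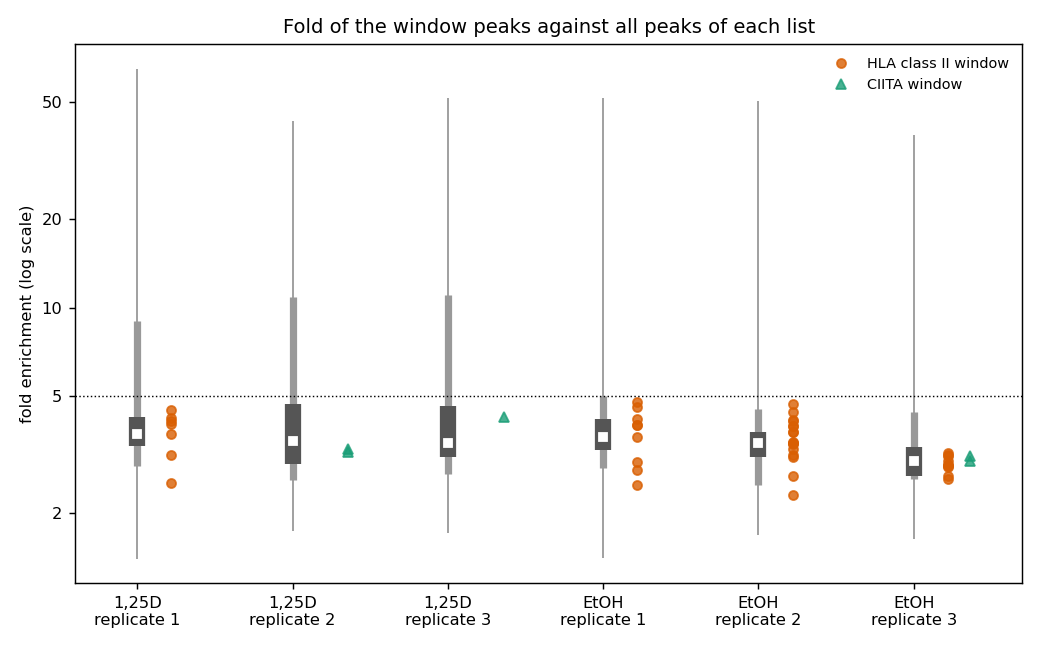
Fold enrichment on a log axis for each list, with all its peaks as grey bars (thin line, lowest to highest; medium bar, 5th to 95th percentile; thick bar, quartiles; white square, median) and the peaks of the HLA class II window (orange circles) and of the CIITA window (green triangles) beside them. All member peaks lie under the dotted line at fold 5, the highest at 4.76.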

How the data were processed

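THP-1 VDR ChIPmentation was measured in 3 libraries of 1,25D and 3 of EtOH; an input library was not analysed here. The submitters' processing notes name hg19, Bowtie 1.1 and MACS2; for settings, use of the input and the MACS2 version, nothing is given in the sources used here. Each list gives a peak's fold enrichment, a ratio over background, per the file headers, and the p-value, per the file headers, as deposited by the authors. The highest p was 0.00433 and 0.00431 in 1,25D and EtOH replicates 1, and 0.00978 to 0.00997 elsewhere. Depth is unknown.

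With Python 3.11.15 and pandas 2.3.3, incomplete last lines of 3 lists were left out, and peaks sharing at least 1 bp were merged into sites over the part that the compared lists cover: to chromosome 16 at 50293713 for 6 lists and to chromosome 6 at 86580665 for 4. Starts may be counted from 0, so positions may be off by 1 bp. Peak numbers near CIITA were compared by an exact permutation test; all else is description. Background windows of 750 and 190 kb tiled each chromosome. From the 2871 and 4481 windows, those with no peak in the lists used were left out. Sites named are those in at least 2 lists and, per list, the highest-fold unrepeated peak and the one nearest the CIITA start; the other sites named were chosen after their values were seen. Members, windows and lists were chosen with earlier results of these data known. The merging was tested on simulated lists. No 2 lists shared an identical line (0), and 0 columns belonged to other samples. Alternatives were fold thresholds, 1 highest p, equal list length, other merging, window width and left-out libraries.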

Additional observations from a re-analysis of the deposited data

How the results depend on the processing

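At a threshold of fold 5 the differences in peak number were 0 in the CIITA window and 0 in the HLA window, and so were the sites in at least 2 lists of 1,25D and no EtOH list near CIITA (0), the HLA sites of 1,25D replicate 1 with an EtOH partner (0) and the HLA sites in every list (0), since no peak reached it. At fold 3 the last of these was also 0, as EtOH replicate 3 had a fold of 2.91 there. With libraries left out in turn, the difference near CIITA ranged from -0.167 to 1, the CIITA site count from 0 to 1 (0 without 1,25D replicate 2 or 3, which carry it), the partnered HLA sites from 2 to 4, the HLA sites in every list from 1 to 2, and the HLA difference in peaks, 1,25D minus the EtOH mean, from -6.5 to -2.5. That difference was -5 as reported, -2 between both replicates 1 and -1.67 with equal list length. Peaks of fold 5 or more near the HLA genes numbered 6 instead of 0 with the window widened by 100 kb on each side, which takes in the sites at 32286208 and 33128848 but not the one at 32144964. With equal list length the CIITA difference was 1 (exact permutation p = 0.4). With the replicate block it was 0.333 (p = 1, exact permutation within pairs, where the smallest possible p is 0.25). Same-numbered libraries correlated at 0.0418, -0.00912 and 0.0308 in their deviations over 2959 sites. The other pairs ran from -0.0464 to 0.0272, and not every library correlated best with its own number. Values this small in every pair cannot show whether the numbers pair the samples. The comparisons limited by the highest p, the HLA sites in every list and the count at fold 5 were added after the data were seen.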

Other observations

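Many peaks of both windows carried values that recur throughout their list. The peaks of EtOH replicate 2 at 32564649 and 32871918, both with a fold of 3.46, had exactly the fold and p of 5313 peaks of that list. The peak of EtOH replicate 1 at 32508412 (fold 4.17) shared its pair of values with 2062 peaks, and the peak of 1,25D replicate 1 at 32851630 (fold 4.21) with 1469, each count including the peak itself. Other counts in the HLA window went down to 3, for the peak of EtOH replicate 3 at 32678513. In the CIITA window the counts were 273 for the peak of 1,25D replicate 2 at 10979175, 3 and 5 for the peaks of the repeated site in 1,25D replicates 2 and 3, and 3134 and 35 for the peaks of EtOH replicate 3 at 10975732 and 10944011. Peaks of the shortest length in their list made up 22 of the 43 in the HLA window, with 4 of 7 in 1,25D replicate 1, against 5 of 9, 9 of 17 and 4 of 10 in EtOH replicates 1 to 3. Over whole lists this share was 43.0% in 1,25D replicate 1, against 51.2%, 59.0% and 37.1% in EtOH replicates 1 to 3. In the CIITA window it was 1 of 5.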
